A study of Mus musculus with 6 samples.

Results

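The genes described here are 35 DNA repair and checkpoint genes, among 44788 entries of a table of read counts from mouse chondrocytes. They were picked by name for their known roles in homologous recombination, the Fanconi pathway, mismatch repair, base excision, end joining, lesion bypass and checkpoint signalling. Earlier results of these data were known when they were picked. The shares called among them are therefore not those of repair genes at large. All 35 were found by symbol, and all 35 passed the filter on low counts, which kept 15362 entries. The cells were chondrocytes of the femoral epiphysis of C57BL/6 mice at postnatal day 1, kept in medium with 10% FBS. There were 3 groups of 2 libraries each: TGF-alpha + gefitinib (10 µM gefitinib for 30 min, then gefitinib with 10 ng/ml TGF-alpha for 48 h), TGF-alpha (10 ng/ml for 48 h) and control, and 0.1% DMSO was present in every group according to the treatment protocol. The series design instead names PBS for the control and calls the cells P2, a term it does not explain. TGF-alpha binds and activates the receptor EGFR, whose kinase activity is blocked by gefitinib. No group with gefitinib alone was analysed here, so an action of the inhibitor apart from TGF-alpha cannot be told apart from its action on the response to TGF-alpha.

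DNA breaks in cells that have copied their genome can be repaired by homologous recombination, in which BRCA1 and BRCA2 act on resected DNA ends and the sister chromatid serves as the template. The Fanconi proteins unhook crosslinks between the strands and protect stalled replication forks, while the ATR and ATM kinases signal damage to CHEK1 and CHEK2 and hold the cell cycle. End joining and base excision act throughout the cell cycle. Many genes of recombination and of the S phase checkpoint are transcribed mainly in dividing cells, through E2F factors.

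Total counts per library lay between 12317407 and 16096263, and a member had between 13 and 1349 counts in a library. Of the 35 genes, 33 had at least 20 counts in every library, and Bard1 and Palb2 did not, so their values are the least precise. Values below are CPM, which are counts scaled to a common library size, and a gene was called at an edgeR adjusted p under 0.05 over all tested genes. No source used here says that replicate libraries came from separate cultures or animals, so the p-values measure only how far these samples differ, and that spread may be technical. All 10 chondrocyte markers were tested, and their summed level was 66000 to 68500 CPM with TGF-alpha + gefitinib, 38200 to 39400 CPM with TGF-alpha and 75700 to 80500 CPM in control. Macrophage markers, of which 3 of 7 were tested and 3 were at 0 in every library, summed to 6.51 to 8.96 CPM with TGF-alpha + gefitinib, 12 to 15.6 CPM with TGF-alpha and 5.46 to 5.54 CPM in control. Osteoblast markers, of which 4 of 6 were tested, summed to 78.8 to 81.8 CPM with TGF-alpha + gefitinib, 52.2 to 57.4 CPM with TGF-alpha and 122 to 126 CPM in control. Fibroblast and perichondrium markers summed to 8670 to 8850 CPM with TGF-alpha + gefitinib, 8740 to 8930 CPM with TGF-alpha and 11500 to 12300 CPM in control. Markers of high level weigh most in these sums, and 1 chondrocyte marker reached 741765 counts in a library. A sum therefore does not show how each marker moved. The part of these marker levels in the results was not tested. Endothelial markers summed to at most 0.649 CPM and erythroid markers to at most 0.721 CPM. In such bulk samples a change in the share of cells of a type, or of cells in a phase of the cycle, cannot be told apart from a change of RNA per cell.

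The promoters of these genes were searched for motifs, which the choice of genes did not use. RefSeq promoters (GRCm38.p6, 300 bases around the start site, most of them upstream) were found for 29 of the 35 genes. An E2F-type octamer, TTTCCCGC or TTTGGCGC or TTTCGCGC or TTTGCCGC on either strand, was present in 8 of these 29 genes (27.6%) and in 704 of 27025 genes of the table (2.60%). CCAAT was present in 58.6% of the member genes and 41.1% of all genes, and the cell cycle element TTTGAA in 3.45% of the member genes and 20.2% of all genes. The median GC content was 57.3% over member promoters and 52.7% over all promoters, which bears on how often a GC-rich motif occurs. The 27025 genes with a promoter were not limited to those that passed the filter on low counts, as all 35 members did. The part of this in the shares was not tested. The 4 promoters printed here are shown because their genes span the responses described below: Bard1 and Clspn had large rises with TGF-alpha, Brca2 a smaller one, and Xrcc6 was not called. Capitals mark the octamer, which starts at base -209 from the start site in Bard1 (forward strand of the gene), and in reverse complement at -168 in Brca2, 22 in Clspn and -46 in Xrcc6.
Bard1 (chr1:71102923-71103222, minus strand): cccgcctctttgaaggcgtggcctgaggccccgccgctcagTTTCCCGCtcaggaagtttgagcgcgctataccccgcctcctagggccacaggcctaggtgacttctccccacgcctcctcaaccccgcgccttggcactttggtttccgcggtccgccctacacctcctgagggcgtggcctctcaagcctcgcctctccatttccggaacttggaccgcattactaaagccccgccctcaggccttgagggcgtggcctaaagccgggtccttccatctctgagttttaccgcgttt
Brca2 (chr5:150522371-150522670, plus strand): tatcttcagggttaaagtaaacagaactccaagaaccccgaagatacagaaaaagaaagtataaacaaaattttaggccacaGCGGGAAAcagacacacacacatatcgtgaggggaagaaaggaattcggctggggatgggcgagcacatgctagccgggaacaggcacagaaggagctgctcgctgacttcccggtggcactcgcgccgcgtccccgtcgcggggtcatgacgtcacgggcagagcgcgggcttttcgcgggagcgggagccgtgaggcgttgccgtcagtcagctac
Clspn (chr4:126556730-126557029, plus strand): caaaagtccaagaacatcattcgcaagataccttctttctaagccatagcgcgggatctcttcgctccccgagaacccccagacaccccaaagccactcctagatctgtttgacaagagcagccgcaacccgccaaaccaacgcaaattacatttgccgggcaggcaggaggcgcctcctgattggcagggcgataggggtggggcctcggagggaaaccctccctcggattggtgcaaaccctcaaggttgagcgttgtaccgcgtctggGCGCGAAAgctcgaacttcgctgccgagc
Xrcc6 (chr15:82016119-82016418, plus strand): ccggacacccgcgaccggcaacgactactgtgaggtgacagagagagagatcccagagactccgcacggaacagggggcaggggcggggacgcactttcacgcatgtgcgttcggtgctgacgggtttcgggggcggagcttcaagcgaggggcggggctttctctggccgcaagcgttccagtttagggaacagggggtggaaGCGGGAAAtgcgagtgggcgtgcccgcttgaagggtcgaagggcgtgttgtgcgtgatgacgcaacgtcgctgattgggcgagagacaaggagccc
The other holders were Chek2, Fancg, Msh6 and Topbp1. Of the 8 genes with the octamer 5 were called higher with TGF-alpha and 3 were not called, with a median log2 fold change of 0.36, and of the 21 without it 12 were called higher, 1 lower and 8 not, with a median of 0.69. A match is a description of these letters and not of a bound site. Only these octamers were searched, so genes without them may hold other E2F-type forms.

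TGF-alpha against control asks how activation of EGFR bears on these genes. With TGF-alpha 21 of the 35 were called higher, 1 lower (Xrcc5) and 13 were not called, against a background of 15.9% of all tested genes for higher and 14% for lower calls. The median log2 fold change was 0.60 over the 35 genes, with a range of -0.28 to 1.63, and 0 over all tested genes. The rises were in recombination (10 of 13 genes), the Fanconi pathway (5 of 7), lesion bypass (1 of 1), checkpoint signalling (4 of 7) and base excision (1 of 4). Against a fold of at least 1.2 there were 14 genes higher, with a background of 8.89%, and 0 lower.

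**Figure D1:**
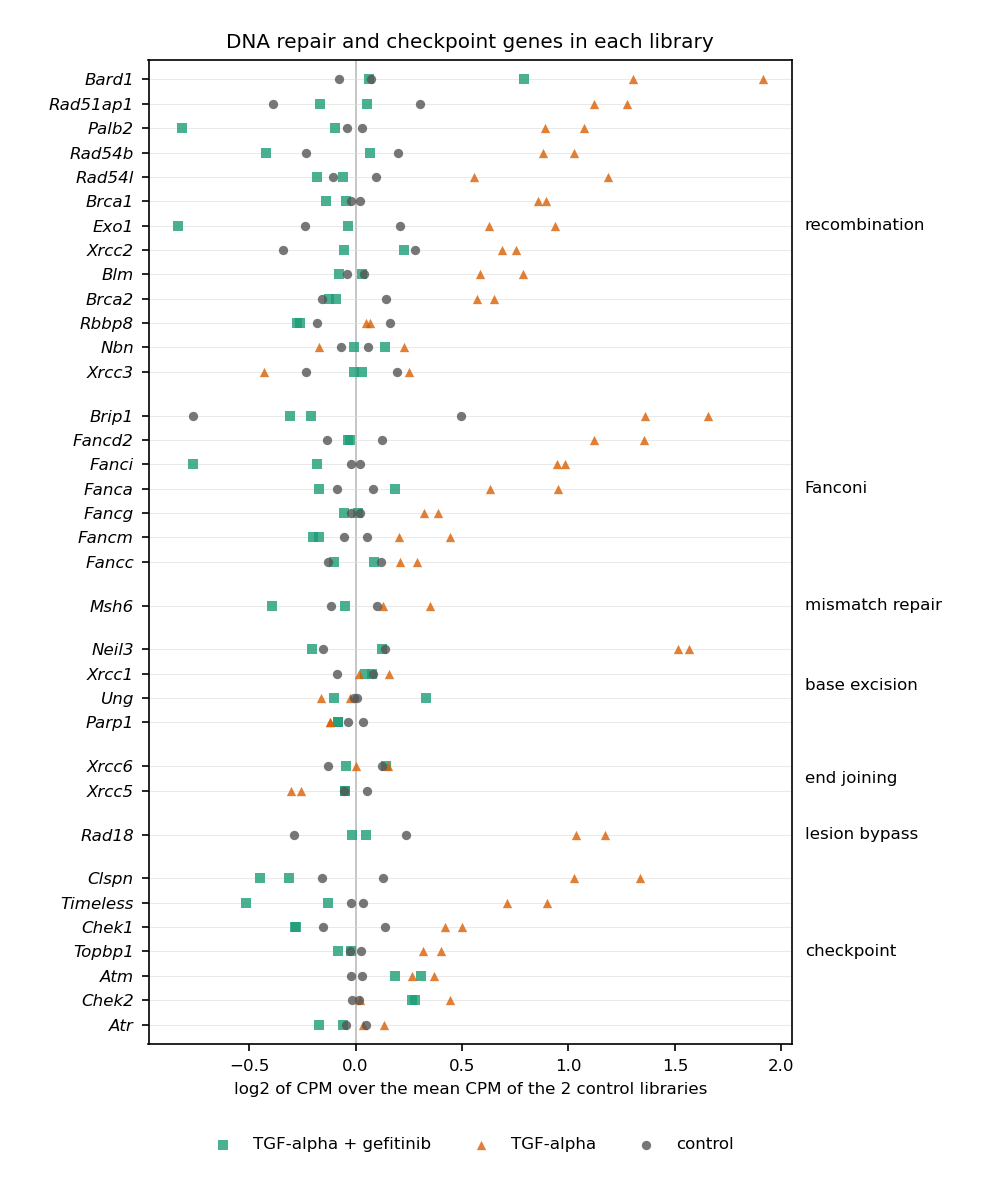
Log2 of the CPM of each library over the mean CPM of the 2 control libraries (horizontal axis), for the 35 genes grouped by role (vertical axis), with squares for TGF-alpha + gefitinib, triangles for TGF-alpha and circles for control. The TGF-alpha libraries of Bard1, Brip1, Neil3, Fancd2 and Clspn lie above those of both other groups. The 3 groups lie close to each other for Parp1, Xrcc1 and Xrcc6.

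Among the recombination genes, Brca1, Bard1, Palb2 and Brca2 were each called higher with TGF-alpha. Brca1, which directs end resection and recruits PALB2 (chromosome 11, 101488764 to 101551955 in GRCm38), was at 11.3 and 11 CPM with TGF-alpha, against 6.17 and 5.99 CPM in control. Bard1, its obligate partner (chromosome 1, 71027498 to 71103146), was at 4.33 and 2.84 CPM with TGF-alpha, against 1.09 and 1.21 CPM in control. Brca1 rose by a log2 fold change of 0.88 ± 0.17 (SE, adjusted p = 0.000966) and Bard1 by 1.63 ± 0.36 (adjusted p = 0.00327). Palb2, the bridge between BRCA1 and BRCA2, was at 3.39 and 3.85 CPM with TGF-alpha and 1.87 and 1.78 CPM in control. Brca2, the central mediator of recombination (chromosome 5, 150522630 to 150570329), was at 13.1 and 12.4 CPM with TGF-alpha and 7.49 and 9.23 CPM in control. The log2 fold changes were 0.98 ± 0.31 in Palb2 (adjusted p = 0.0265) and 0.60 ± 0.16 in Brca2 (adjusted p = 0.00864).

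Among the other recombination genes, Rad51ap1, a stimulator of strand pairing, was at 9.88 and 8.87 CPM with TGF-alpha and at 3.12 and 5.03 CPM in control, a log2 fold change of 1.18 ± 0.23 (adjusted p = 0.00111). The DNA translocase Rad54l and its relative Rad54b rose by 0.91 ± 0.26 and 0.94 ± 0.25, the recombination factor Xrcc2 by 0.70 ± 0.24, the helicase Blm by 0.69 ± 0.20 and the exonuclease Exo1 by 0.78 ± 0.26, with adjusted p from 0.0103 to 0.0356. The other 3 recombination genes were not called. Xrcc3, which acts in recombination as Xrcc2 does, was at 6.56 and 10.5 CPM with TGF-alpha and 10.1 and 7.51 CPM in control, so that the groups overlapped (log2 fold change -0.04 ± 0.22, adjusted p = 0.909). Rbbp8, which starts end resection, and Nbn, a subunit of the MRE11 complex that senses breaks, had log2 fold changes of 0.05 and 0.04 with adjusted p of 0.828 and 0.859.

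In the Fanconi pathway the largest log2 fold changes with TGF-alpha were those of Brip1, Fancd2 and Fanci. Fancd2, which is clamped onto DNA with FANCI at crosslinks (chromosome 6, 113531682 to 113597017), was at 14.5 and 12.3 CPM with TGF-alpha, against 6.17 and 5.16 CPM in control. Its partner Fanci (chromosome 7, 79391929 to 79450264) was at 11 and 11.3 CPM with TGF-alpha, against 5.62 and 5.79 CPM in control. The log2 fold changes were 1.25 ± 0.17 for Fancd2 (adjusted p = 6.33e-05) and 0.96 ± 0.20 for Fanci (adjusted p = 0.00153). Brip1, a helicase that binds BRCA1 (chromosome 11, 86058138 to 86201193), was at 7.50 and 6.11 CPM with TGF-alpha and at 3.36 and 1.40 CPM in control, where the 2 libraries were far apart. It rose by 1.55 ± 0.32 on the log2 scale (adjusted p = 0.00187), and by 2.27 without control 1. Of the core complex that ubiquitinates the pair, Fanca rose by 0.80 ± 0.18 (adjusted p = 0.00296) and Fancg by 0.36 ± 0.12 (adjusted p = 0.0317), while Fancc (0.25 ± 0.16, adjusted p = 0.271) and the translocase Fancm (0.32 ± 0.15, adjusted p = 0.123) were not called.

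**Figure D2:**
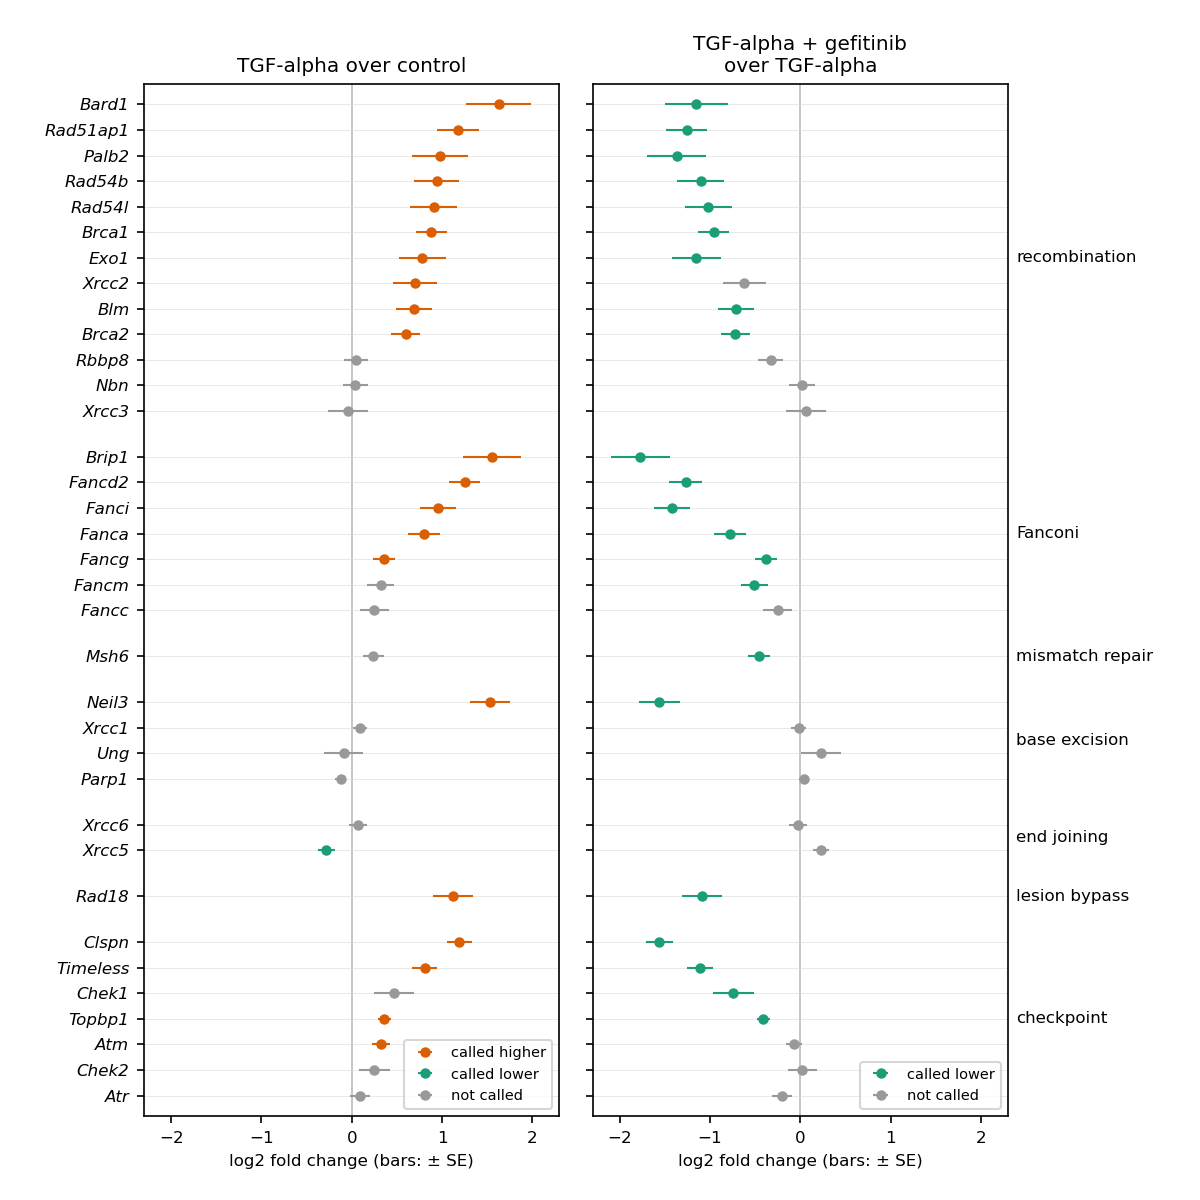
Log2 fold change of each of the 35 genes (horizontal axis) with ± SE as a bar, grouped by role (vertical axis), for TGF-alpha over control (left) and TGF-alpha + gefitinib over TGF-alpha (right), coloured by call. Brip1, at 1.55 on the left and -1.77 on the right, lies far from 0 in both, while Parp1, at -0.12 and 0.04, was not called in either.

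Base excision and end joining held 1 gene called higher and 1 called lower among 6 genes. Over all tested genes 15.9% were called higher and 14% lower, so these counts lie near the background. Neil3, a glycosylase that also unhooks crosslinks (chromosome 8, 53586867 to 53639065), was at 8.44 and 8.73 CPM with TGF-alpha and at 2.65 and 3.25 CPM in control, and rose by 1.53 ± 0.22 on the log2 scale (adjusted p = 9.55e-05). The uracil glycosylase Ung (-0.09 ± 0.22), the scaffold protein Xrcc1 (0.09 ± 0.08) and Parp1, the sensor of strand breaks (-0.12 ± 0.06), were not called, with adjusted p of 0.801, 0.47 and 0.155. Xrcc5, which encodes the KU80 subunit that binds broken ends (chromosome 1, 72307421 to 72394952), was at 26.7 and 27.6 CPM with TGF-alpha, against 34.2 and 31.8 CPM in control. It was the only gene of the 35 called lower, by 0.28 on the log2 scale (SE 0.09, adjusted p = 0.0287), among 4 with a value below 0. Its partner Xrcc6, which encodes KU70 and whose promoter is shown above, was at 39.5 and 35.6 CPM with TGF-alpha and 32.5 and 38.8 CPM in control, an overlap (log2 fold change 0.07 ± 0.10, adjusted p = 0.655).

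Rad18, the ubiquitin ligase that opens lesion bypass, was at 8.15 and 8.94 CPM with TGF-alpha and at 4.68 and 3.25 CPM in control, a rise of 1.12 ± 0.22 (adjusted p = 0.00122). The mismatch recognition gene Msh6 was at 36.2 and 42.2 CPM with TGF-alpha and 30.6 and 35.5 CPM in control, and was not called (0.24 ± 0.12, adjusted p = 0.145). Both TGF-alpha libraries of Msh6 were above both control libraries, as were those of Fancc, Fancm, Chek1 and Chek2, which were not called either. Those of Ung and Parp1, also not called, were below both control libraries. How many of all tested genes separate in this way was not counted, so nothing is drawn from it.

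In checkpoint signalling the called genes were 3 fork proteins and 1 kinase. Clspn, which encodes claspin, the adaptor through which ATR activates CHEK1 (chromosome 4, 126556935 to 126593903), was at 27.3 and 22.0 CPM with TGF-alpha, against 9.68 and 11.8 CPM in control. Timeless, which protects the fork (chromosome 10, 128232065 to 128252941), was at 23.7 and 20.8 CPM with TGF-alpha, against 13 and 12.5 CPM in control. The rises were 1.19 ± 0.14 for Clspn (adjusted p = 1.46e-05, the lowest of the 35 genes) and 0.81 ± 0.14 for Timeless (adjusted p = 0.000329). The ATR activator Topbp1 rose by 0.36 ± 0.07 (adjusted p = 0.000886) and the kinase Atm by 0.32 ± 0.10 (adjusted p = 0.0214). The kinases Atr (0.09 ± 0.11), Chek1 (0.47 ± 0.22) and Chek2 (0.25 ± 0.17) were not called, with adjusted p of 0.602, 0.134 and 0.292.

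Some of these calls did not hold when 1 library was left out. Each such fit also leaves a group of 1 library, so the part of a given replicate in a lost call was not tested. Without TGF-alpha 1 the count of genes higher was 11, and without control 1 it was 13. Leaving out TGF-alpha 1 ended the calls of Brca2, Bard1, Palb2, Rad54l, Xrcc2, Blm, Exo1, Fanca, Fancg, Atm and Xrcc5, and leaving out control 1 those of Brca2, Palb2, Rad54b, Xrcc2, Blm, Exo1, Fancg, Atm and Xrcc5. Palb2, Rad54l, Blm, Exo1, Fancg, Atm and Xrcc5 were not called without control 2, nor Palb2, Rad54b, Xrcc2, Exo1, Fancg and Xrcc5 without TGF-alpha 2.

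TGF-alpha + gefitinib against TGF-alpha asks what blocking the receptor kinase does in the presence of its ligand. Of the 35 genes 22 were called lower, 0 higher and 13 were not called, while 16.9% of all tested genes were called lower and 17% higher. The median log2 fold change was -0.71 over the 35 genes, with a range of -1.77 to 0.23, and 0.01 over all tested genes. In the test against 1.2-fold 18 genes were lower, with a background of 9.55%. Lower levels were called for 9 of 13 recombination genes, 6 of 7 Fanconi genes, 4 of 7 checkpoint genes, Msh6, Neil3 and Rad18, and for neither end joining gene. The 2 comparisons share the TGF-alpha libraries, so the 19 genes called higher with TGF-alpha and lower when gefitinib was added are not 2 independent observations.

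Brip1 was at 2.06 and 1.92 CPM with TGF-alpha + gefitinib, against 7.50 and 6.11 CPM with TGF-alpha, and fell by 1.77 on the log2 scale (SE 0.33, adjusted p = 0.000742). Clspn was at 8.70 and 7.92 CPM with TGF-alpha + gefitinib, against 27.3 and 22.0 CPM with TGF-alpha. Neil3 was at 3.22 and 2.56 CPM with TGF-alpha + gefitinib, against 8.44 and 8.73 CPM with TGF-alpha. Clspn and Neil3 each fell by 1.56 on the log2 scale (SE 0.15 and 0.23, adjusted p = 1.25e-06 and 7.88e-05). Fanci was at 3.36 and 5.04 CPM with TGF-alpha + gefitinib, against 11 and 11.3 CPM with TGF-alpha, and Fancd2 at 5.55 and 5.52 CPM with TGF-alpha + gefitinib, against 14.5 and 12.3 CPM with TGF-alpha. The pair fell by 1.42 and 1.27 on the log2 scale, with adjusted p of 7.49e-05 and 5.08e-05.

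Of the recombination genes, Brca1 was at 5.89 and 5.52 CPM with TGF-alpha + gefitinib, against 11.3 and 11 CPM with TGF-alpha, and fell by 0.96 on the log2 scale (SE 0.17, adjusted p = 0.000448). Palb2 fell by 1.37, Rad51ap1 by 1.26, Bard1 by 1.15, Exo1 by 1.15, Rad54b by 1.10, Rad54l by 1.02, Brca2 by 0.72 and Blm by 0.71, with adjusted p from 0.000691 to 0.0195. Bard1 was at 1.99 and 1.2 CPM with TGF-alpha + gefitinib, against 4.33 and 2.84 CPM with TGF-alpha. Xrcc2 had a log2 fold change of -0.62 ± 0.24 with an adjusted p of 0.0555, and Rbbp8 one of -0.33 ± 0.14 with an adjusted p of 0.0837. In the checkpoint group Timeless fell by 1.11 (adjusted p = 2.01e-05), Chek1 by 0.74 (adjusted p = 0.0205) and Topbp1 by 0.41 (adjusted p = 0.000291). Msh6 fell by 0.46 (adjusted p = 0.00833) and Fancm by 0.51 (adjusted p = 0.0178), though neither had been called between TGF-alpha and control. Atm had a log2 fold change of -0.07 ± 0.09 (adjusted p = 0.623), at 30.6 and 28.1 CPM with TGF-alpha + gefitinib, 31.9 and 29.7 CPM with TGF-alpha, and 25.2 and 24.3 CPM in control. Xrcc5 was at 31.9 and 31.9 CPM with TGF-alpha + gefitinib, against 26.7 and 27.6 CPM with TGF-alpha (0.23 ± 0.09, adjusted p = 0.0622).

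Without TGF-alpha 1 the calls of Bard1, Rad54l, Blm, Exo1, Fanca, Fancg and Chek1 were lost, and without TGF-alpha + gefitinib 2 those of Bard1, Blm, Fancg, Fancm and Chek1. Leaving out TGF-alpha 2 or TGF-alpha + gefitinib 1 ended those of Fancg, Fancm, Msh6 and Chek1.

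**Figure D3:**
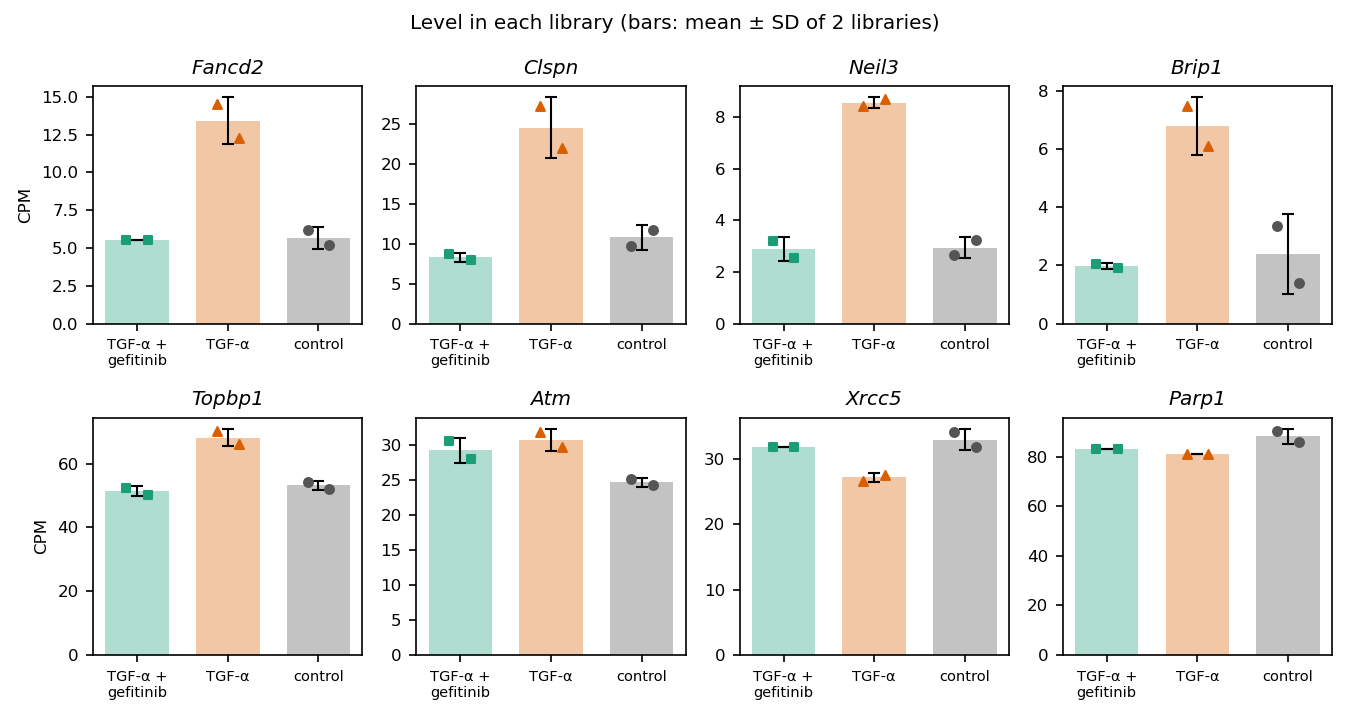
CPM of 8 genes (vertical axes, starting at 0) in TGF-alpha + gefitinib, TGF-alpha and control (horizontal axis), with points for libraries and bars for the mean ± SD of 2 libraries. Fancd2, Clspn, Neil3, Brip1 and Topbp1 have their highest bars with TGF-alpha, Atm is lowest in control, Xrcc5 is lowest with TGF-alpha, and Parp1 lies between 81.1 and 90.2 CPM in every library.

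TGF-alpha + gefitinib against control asks whether the genes differed from the level without ligand. None of the 35 was called in either direction by edgeR or by DESeq2, while 5.27% of all tested genes were called higher and 4.26% lower. In edgeR at an unadjusted p under 0.05, 1 gene was higher (Atm, 0.25 ± 0.10 on the log2 scale, edgeR adjusted p = 0.13) and 1 lower (Clspn, -0.38 ± 0.16, edgeR adjusted p = 0.173). The median log2 fold change was -0.05, with a range of -0.46 (Fanci) to 0.48 (Bard1), and 23 of the 35 values were below 0. Clspn was at 8.70 and 7.92 CPM with TGF-alpha + gefitinib and at 9.68 and 11.8 CPM in control. A p that misses the threshold does not show that the levels were the same, and the SE was 0.40 for Bard1, 0.37 for Brip1 and 0.35 for Palb2, among the genes of few counts. Scaled by total counts alone, Atm was called higher.

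Compared per kilobase of merged exon, Parp1 was the highest of the 35 genes in control, at 16.6 CPM per kb, followed by Xrcc5 at 12.9, Xrcc6 at 7.96, Xrcc1 at 7.70 and Msh6 at 7.61. The lowest were Bard1 at 0.203, Palb2 at 0.249 and Brip1 at 0.319 CPM per kb. With length taken from the longest coding transcript, Parp1 was still the highest, at 22.7 CPM per kb, and Xrcc1 came next, at 17.8, above Xrcc5. Across the 35 genes, the level with TGF-alpha + gefitinib, whose libraries did not enter the change, had a Spearman rho of -0.75 with the log2 fold change of TGF-alpha against control. It was -0.75 also with length taken from the longest coding transcript. The genes share libraries and the level of a gene bears on the error of its fold change, so this is a description. No such value was computed over all tested genes, so the relation is not shown to be particular to these genes.

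**Figure D4:**
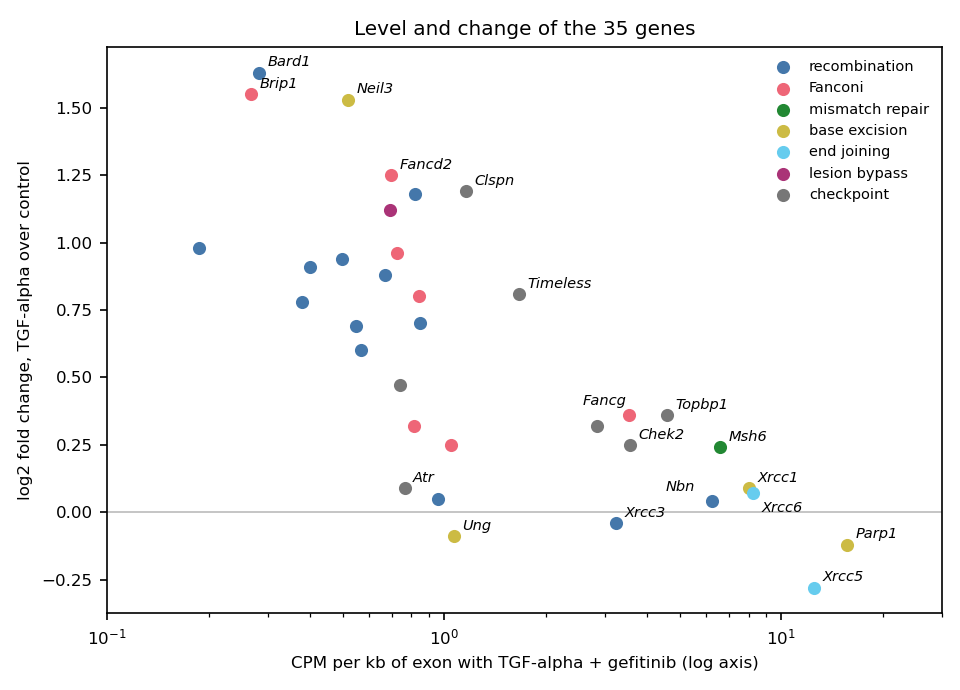
Log2 fold change of TGF-alpha against control (vertical axis) by the mean CPM per kilobase of merged exon with TGF-alpha + gefitinib (horizontal axis, log scale) for the 35 genes, coloured by role. Changes run between 1.63 for Bard1, at 0.282 CPM per kb, and -0.28 for Xrcc5, at 12.5 CPM per kb. The lowest level was that of Palb2 (0.187 CPM per kb, change 0.98) and the highest that of Parp1 (15.7 CPM per kb, change -0.12).

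Other genes of the same pathways were described for context, from lists that hold none of the 35. Over all tested genes 15.9% were called higher and 14% lower when TGF-alpha was given. Among 56 other recombination and Fanconi genes, 17 rose and 1 fell, with a median log2 fold change of 0.18. Rpa1, which coats single strands, rose by 0.42 and Eme1, a subunit of a junction nuclease, by 1.30, while the nuclease Fan1 fell by 0.45 (adjusted p = 0.0292). Among 20 other checkpoint genes 9 rose and 0 fell, and those of lowest p were the phosphatase Cdc25b, the kinase Pkmyt1 and Wdhd1, with log2 fold changes of 1.44, 1.09 and 0.93. The partner of Timeless, Tipin, named here after its values were seen, was at 16.1 and 15.9 CPM with TGF-alpha and 16.7 and 13.7 CPM in control (0.08 ± 0.13, adjusted p = 0.706).

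In the other repair lists the counts stand beside a share over all tested genes of 15.9% higher and 14% lower. Of 18 nucleotide excision genes 0 rose and 1 fell, Ddb1, a damage sensor subunit, by 0.14 on the log2 scale. Of 9 other end joining genes 1 rose, the polymerase Polm (0.56), and 1 fell, Lig4, the ligase of the pathway (-0.56, adjusted p = 0.0103). Of 7 other mismatch repair genes 1 rose, the replicative ligase Lig1 (1.05), and 1 fell. Of 20 other base excision and strand break genes 4 rose, among them the flap nuclease Fen1 (0.70), and 0 fell, and of 11 translesion genes 1 rose, the polymerase Polh (0.72), and 0 fell. When gefitinib was added to TGF-alpha, 17 of the 56 recombination and Fanconi genes and 9 of the 20 checkpoint genes were lower, with 1 and 0 higher. Over all tested genes 16.9% were called lower and 17% higher in that comparison.

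**Figure D5:**
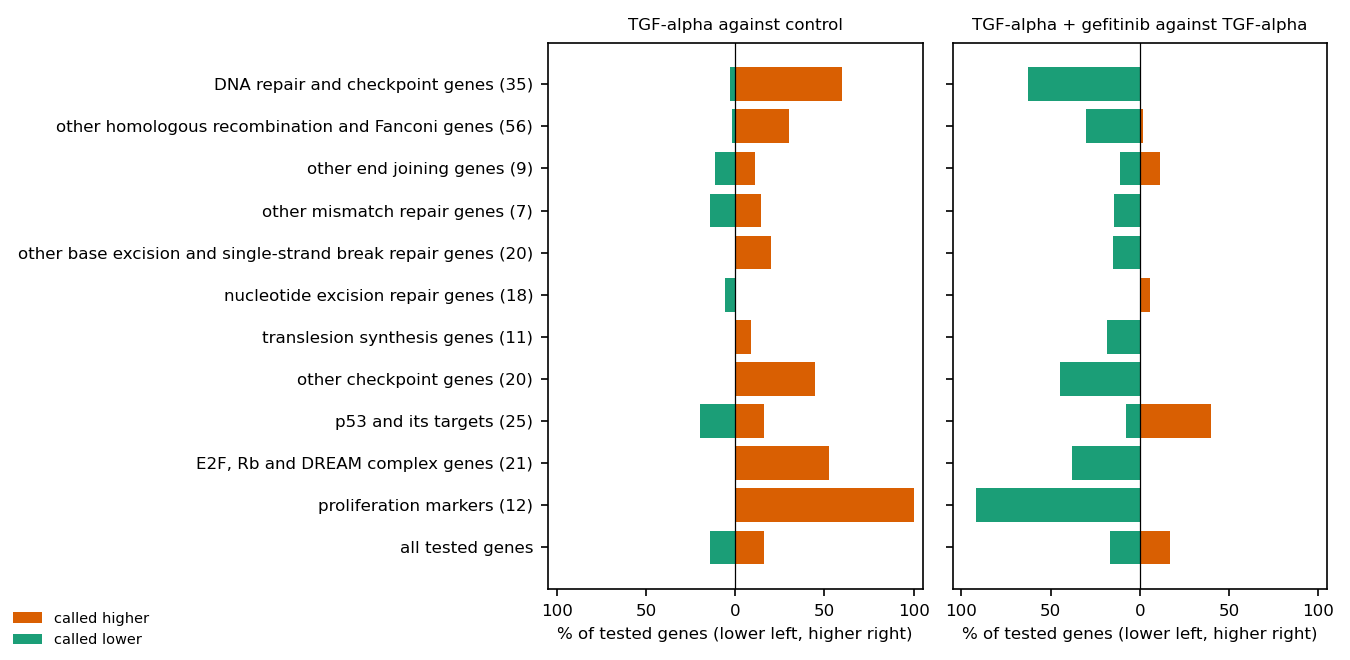
Share of tested genes called higher (right of 0) and lower (left of 0) in each gene list and among all tested genes (vertical axis, number tested in brackets), in percent (horizontal axis), for TGF-alpha against control and for TGF-alpha + gefitinib against TGF-alpha. All 12 proliferation markers were called higher with TGF-alpha, as were 21 of the 35 DNA repair and checkpoint genes and 0 of 18 nucleotide excision repair genes.

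Markers of dividing cells moved with these genes. All 12 proliferation markers, such as Mki67 and Top2a, rose with TGF-alpha (median log2 fold change 1.18), and 11 of 12 fell when gefitinib was added (median -1.39). Their summed level was 347.2 and 338.5 CPM with TGF-alpha + gefitinib, 801.9 and 754.3 CPM with TGF-alpha and 361 and 375.3 CPM in control. The 35 repair and checkpoint genes summed to 501.3 and 492 CPM with TGF-alpha + gefitinib, 646.7 and 625.2 CPM with TGF-alpha, and 513 and 514.4 CPM in control, a ratio of 1.24 between TGF-alpha and control, where the markers had 2.11. Genes of high level weigh most in such sums, for example Parp1 and Topbp1, with control means of 88.1 and 53.2 CPM. Their log2 fold changes with TGF-alpha were -0.12 and 0.36, while the median over the 35 genes was 0.60. The part of the share of dividing cells in the change of the 35 genes was not tested. Of 21 E2F, Rb and DREAM complex genes 11 rose with TGF-alpha and 0 fell, and 8 fell with gefitinib. Over all tested genes 15.9% rose and 14% fell with TGF-alpha, and 16.9% fell when gefitinib was added. The lowest p-values in the E2F, Rb and DREAM list were those of Foxm1, E2f8 and E2f7, with log2 fold changes of 1.30, 1.11 and 1.04 for TGF-alpha against control.

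Damage signalling stabilises p53, whose targets include inhibitors of the cell cycle. Of 25 genes of p53 and its targets 4 rose and 5 fell with TGF-alpha, with a median log2 fold change of -0.06, against 15.9% and 14% of all tested genes, so that these shares lie near the background. Plk2, a kinase, rose by 0.70 and Gadd45a by 0.61, whereas Sesn2 fell by 0.72. When gefitinib was added to TGF-alpha 10 of the 25 were higher and 2 lower, against 17% and 16.9% of all tested genes. Mdm2, which encodes the ligase that degrades p53, was at 90.9 and 85.2 CPM with TGF-alpha + gefitinib, against 68.4 and 69.4 CPM with TGF-alpha (0.35 ± 0.06, adjusted p = 0.000428). Cdkn1a, the p53 target that encodes the p21 inhibitor of cyclin kinases, was at 364 and 378 CPM with TGF-alpha + gefitinib, against 282 and 317 CPM with TGF-alpha (0.31 ± 0.06, adjusted p = 0.00111). In control Mdm2 was at 81.6 and 83.1 CPM and Cdkn1a at 287 and 314 CPM. With TGF-alpha against control Mdm2 was called lower (-0.26, edgeR adjusted p = 0.00526) and Cdkn1a was not called (-0.01, 0.955). With TGF-alpha + gefitinib against control Cdkn1a was called higher (0.30, edgeR adjusted p = 0.0054) and Mdm2 was not called (0.10, 0.378). Trp53 itself had a log2 fold change of 0.06 with TGF-alpha (adjusted p = 0.519). Mdm2, Cdkn1a and Trp53 were named after their values were seen.

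Several of the 35 genes start head to head with a neighbour within 1000 bases. Of 10 such neighbours among the entries, 8 were tested, and 0 of these were called higher with TGF-alpha. Over all tested genes 15.9% were called higher, and 8 genes are too few to tell 0 apart from that share. Emc3, whose start lies 30 bases from that of Fancd2, was at 90.1 and 97.4 CPM with TGF-alpha and at 109 and 103 CPM in control, and fell by 0.18 on the log2 scale (adjusted p = 0.0429). Pomgnt1, 150 bases from Rad54l, fell by 0.29 (adjusted p = 0.00136). Nbr1, 194 bases from Brca1, had a log2 fold change of -0.14 (adjusted p = 0.0536), and Dctn5, 56 bases from Palb2, one of 0.16 (adjusted p = 0.18). Hscb, 202 bases from Chek2, was at 14.9 and 13 CPM with TGF-alpha + gefitinib, 7.93 and 7.20 CPM with TGF-alpha and 9.60 and 7.58 CPM in control. It was called higher with TGF-alpha + gefitinib than in both other groups, by 0.89 against TGF-alpha (adjusted p = 0.000667) and by 0.71 against control (adjusted p = 0.0115).

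Some exons of these genes overlap another gene, and whether reads were counted by strand is not given in the sources used here. Rad54l shares 1184 bases with Lrrc41 on the opposite strand, which fell by 0.31 with TGF-alpha while Rad54l rose. Rad54b shares 2068 bases with Fsbp on the same strand, which had between 13 and 30 counts in a library. Fanca shares 920 bases with Zfp276 and Fanci 921 with Polg, each on the opposite strand and with log2 fold changes of 0.04 and 0.03 in the other gene. Fancc shares 185 bases with 2010111I01Rik, which rose by 0.36 (adjusted p = 0.000111). The values of these genes could therefore hold reads of the other gene.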

How the data were processed

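RNA of 6 libraries was sequenced with Ion Proton protocols, per the labels. The authors deposited 1 table of whole-number read counts per gene, not normalized, with 1 column per library. Per the submitters' processing notes reads were placed on GRCm38. Which aligner, counter and annotation were used, and whether by strand, is not given in the sources used here. The 35 genes and all lists were chosen with earlier results of these data known. Genes were kept by filterByExpr (minimum count 10), scaled by TMM and fitted in R 4.3.3 with edgeR 4.0.16 (glmQLFit and glmQLFTest, group only, all 6 libraries, 3 residual degrees of freedom), two-sided, with Benjamini-Hochberg adjustment over 15362 genes. The fit was tested on simulated data. SE is the absolute log2 fold change divided by the square root of F, and glmTreat tested a fold of 1.2. Alternatives were DESeq2 1.42.0, other scalings and filters, a replicate block and leaving out each library. Named genes were those with the largest, smallest or opposite changes in each role, and up to 3 genes of lowest p in each other list, plus any of opposite direction. Positions and exon lengths came from GENCODE M21 and promoters from RefSeq. The 2 libraries of each group differed beyond counting noise (chi-square per degree of freedom over the 35 genes of 1.51 with TGF-alpha + gefitinib, 2.32 with TGF-alpha and 2.24 in control). A few genes of the other lists are not reported here by name, although they stayed in the tests and counts.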

Additional observations from a re-analysis of the deposited data

How the results depend on the processing

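No called gene changed direction under any alternative, and 10 of 22 calls for TGF-alpha against control and 13 of 22 for TGF-alpha + gefitinib against TGF-alpha held under all of them. For TGF-alpha against control, leaving out 1 library gave 11 to 21 genes higher, 0 to 1 lower and a median log2 fold change of 0.46 to 0.73. DESeq2 and scaling by total counts each gave 0 lower, and total counts gave a median of 0.66. For TGF-alpha + gefitinib against TGF-alpha the median was -0.76 to -0.61 with 1 library left out. Against control, TGF-alpha + gefitinib had 1 gene higher and a median of 0.02 under total counts, and a median of -0.10 to -0.05 with 1 library left out. The causes were not tested. The replicate numbers did not pair the libraries (correlations of their deviations of -0.02 to 0.01), and with a replicate block 19 genes were higher with TGF-alpha and 22 lower with gefitinib. Shares called over all tested genes under the alternatives are not given here. An arm with 1 library left is assumed to vary like the others. Signs changed with 1 library left out in genes that were not called. For TGF-alpha against control these were Xrcc3 (-0.42 to 0.25, and 0.02 under total counts), Rbbp8 (-0.11 to 0.24), Nbn (-0.18 to 0.23) and Xrcc6 (-0.05 to 0.21). For TGF-alpha + gefitinib against TGF-alpha these were Xrcc3 (-0.23 to 0.44), Nbn (-0.17 to 0.24), Ung (-0.03 to 0.43), Xrcc1 (-0.09 to 0.05), Xrcc6 (-0.12 to 0.05) and Chek2 (-0.17 to 0.25). DESeq2 did not call Palb2, Rad54l, Xrcc2, Blm, Exo1, Fancg, Xrcc5 and Atm for TGF-alpha against control, nor Bard1, Blm, Fancg, Fancm and Chek1 for TGF-alpha + gefitinib against TGF-alpha. The block ended the calls of Xrcc2 and Exo1, and testing every gene with a count that of Fancg, each for TGF-alpha against control.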
